A study of Homo sapiens with 6 samples.

Results

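Complex I, the NADH:ubiquinone oxidoreductase of mitochondria, was followed through the RNA of its nuclear genes and their assembly factors in NCI-H69, an established human line of small cell lung cancer, a neuroendocrine tumour. The genes were those whose symbol begins with NDUFA, NDUFB, NDUFC, NDUFS, NDUFV, NDUFAB or NDUFAF and a number. Of 115 matching symbols, 67 names of pseudogenes, antisense or divergent RNAs were left out, which left 48 of the 60671 genes in the files. They comprised 37 structural subunits, 8 NDUFAF assembly factors, NDUFA4 with its paralog NDUFA4L2, and the readthrough gene NDUFC2-KCTD14. Cells labelled wild type received GNF5, an allosteric inhibitor of the ABL kinases, at 20 µM for 48 h (3 libraries), or the vehicle DMSO for 48 h (3 libraries). Whether the libraries of a group came from separate cultures is not given in the labels, so the p-values rest on a spread between libraries that may be only technical. All 6 libraries come from a single cell line. RNA was read in bulk, so fewer cells with a transcript and less transcript per cell cannot be told apart.

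Complex I takes electrons from NADH, passes them to ubiquinone and pumps protons across the inner membrane. Its matrix arm holds the flavin and the iron-sulfur clusters, and its membrane arm holds the proton channels. The core subunits, which carry out catalysis, are shared with bacteria and are encoded partly by nuclear and partly by mitochondrial DNA. Accessory subunits surround the core and are all nuclear. Assembly factors build the modules and leave before the enzyme is complete.

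The GNF5 libraries held 46148701 to 58771023 counts and the DMSO libraries 56467189 to 60697602, and the share of counts from mitochondrially encoded genes was 7.88% to 8.66% with GNF5 and 6.93% to 7.5% with DMSO. All 7 neuroendocrine markers were detected, of which 2 rose and 2 fell with GNF5, and they summed to 2966 to 3089.9 counts per 1000000 (CPM) with GNF5 and 2696 to 2776 CPM with DMSO. The adhesion molecule NCAM1 averaged 728 CPM with GNF5 and 483 CPM with DMSO, and the peptide gene GRP averaged 18.7 CPM with GNF5 and 44.1 CPM with DMSO. Markers of leukocytes summed to 3.18 to 4.05 CPM with GNF5 and 4.60 to 4.88 CPM with DMSO, and those of lung epithelium summed to 3.05 to 3.68 CPM with GNF5 and 7.95 to 8.73 CPM with DMSO. Fibroblast markers summed to 64.8 to 72.0 CPM with GNF5 and 120.2 to 125.9 CPM with DMSO, nearly all of it COL1A2. CD3E, COL3A1 and SFTPB had 0 counts in the 6 libraries, and the part of the other markers in the results was not tested.

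With GNF5, most accessory subunits of complex I were lower, while 1 of 7 nuclear core subunits of the matrix arm fell and the NDUFAF assembly factors moved in both directions. Among 37 structural subunits, 4 rose and 23 fell in edgeR's quasi-likelihood test at an adjusted p under 0.05. Over all 20734 genes tested, 31% were called higher and 30.7% lower. Shares were larger among tested genes averaging at least 10 CPM. There, 31.2% of the 843 genes under 2000 exon bases were higher and 47.4% lower. Of the 9654 longer genes, 41.1% were higher and 35.6% lower. The subunits' median log2 fold change was -0.21, beside 0.01 for all tested genes. Of 8 NDUFAF factors, 3 rose and 2 fell, shares near those over all genes, and their median log2 fold change was 0.12. Without DMSO replicate 2, 2 NDUFAF genes rose and 2 fell. The largest fall was in NDUFA4L2 and the largest rise in the core subunit NDUFV2. Of the 48 genes 47 were tested, and for 34 of these the values of the groups did not overlap, beside 65.9% of all tested genes. Without GNF5 replicate 2 the subunits called higher numbered 7, and 21 were called lower. Below, levels are CPM after TMM scaling, errors of levels are SD (n = 3 per group), and log2 fold changes are GNF5 over DMSO with their standard error (SE).

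**Figure D1:**
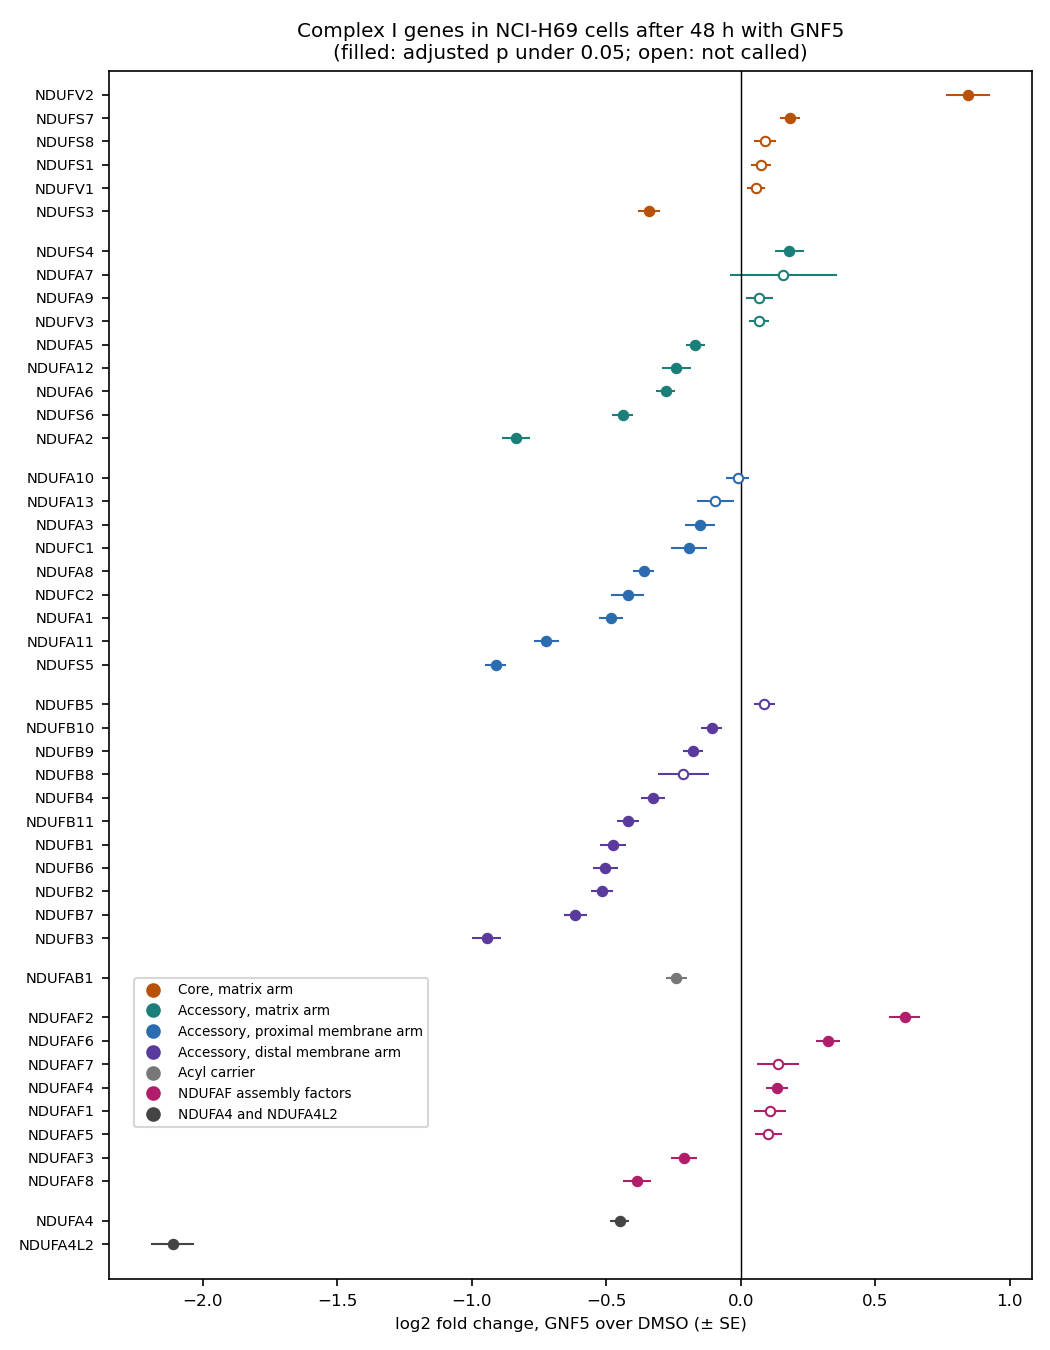
Log2 fold change, GNF5 over DMSO, with its SE (x axis) for 46 of the 47 tested genes (y axis), grouped by role. Filled points passed edgeR's test at an adjusted p under 0.05. The core subunits plotted, other than NDUFS3, lie right of 0, and 19 of 20 accessory subunits of the membrane arm lie left of it.

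The promoters of these genes, read from RefSeq on GRCh38.p14 as 250 bases before to 50 after each gene's start, were searched on both strands for motifs of regulators of mitochondrial genes. The table held 40 of the 48 genes. The genes not searched included NDUFS5, NDUFC2, NDUFB5, NDUFB9, NDUFAF6, NDUFA4 and NDUFA4L2. The motifs were GCGC and TGCGC with any base between them for NRF1, CCGGAAG for the ETS factors that include GABPA, ATGGCGG for YY1 and AAGGTCA for the estrogen-related receptor ESRRA. They were chosen after the fold changes were known. NRF1 matches on opposite strands share bases in NDUFA8.

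The YY1 letters stood in 13 of 32 structural promoters (40.6%), 1 of 7 NDUFAF promoters (14.3%), 5.72% of all promoters and 9.24% of those of tested genes. By call, they were in 9 of the 12 structural promoters whose gene was not lower (75%) and in 4 of the 20 whose gene was lower (20%). The median log2 fold change was 0.07 for the 13 genes with the letters and -0.33 for the 19 without. Over all tested genes the letters did not go with such a gap, since 34.6% of genes with them and 34% of genes without them were called lower. The split within the subunits was noticed in these data and was not tested. It also ran alongside the split by arm. Of the genes with the letters, NDUFA13 and NDUFB11 are membrane arm subunits and the others belong to the matrix arm. Of those without, only NDUFV1, NDUFA2, NDUFA5 and NDUFA12 belong to the matrix arm, apart from NDUFAB1, which sits in each arm. Letters and arm were not told apart. In 11 of the 13 genes the match began 12 to 41 bases after the start. The letters ATGGCGG begin with ATG, so a match there can be the gene's own start codon for translation. Whether the matches are start codons, sites of YY1 or both was not tested. The windows of 30 bases below, on the gene's strand and with the YY1 letters of either strand in capitals, are shown because they carry this split.
NDUFV2: gggaaggtgaacagtgtggcCCGCCATgtt
NDUFS7: gccgaggccaagATGGCGGtgctgtcaggt
NDUFS4: gcctgcagcaagATGGCGGcggtgtcaatg
NDUFS1: agttagccgaggCCGCCATattgaataagc
NDUFS8: ccccaaaccaacATGGCGGccccctacaaa
NDUFA7: ctggtgtccatgATGGCGGcgcggcggcgg
NDUFA9: ttgtgggaaaagATGGCGGctgccgcacaa
NDUFV3: cgcccgctgtcaCCGCCATggctgccccgt
NDUFA13: gatactgcgagtATGGCGGcgtcaaaggtg
NDUFS3: catctgagtaacATGGCGGcggcggcggta
NDUFA6: tgctttggcaagATGGCGGggagcggcgtc
NDUFS6: cagcggcgcaaaATGGCGGcggcgatgacc
NDUFB11: gcaccatctgtcATGGCGGctgggctgttt
The genes of the upper 3 lines rose, those of the next 6 did not pass, and those of the lower 4 fell. The windows of NDUFV2, NDUFS7, NDUFS4, NDUFS8, NDUFA9, NDUFV3, NDUFA13, NDUFS3 and NDUFS6 lie, in that order, at chr18:9102719-9102748, chr19:1383915-1383944, chr5:53560651-53560680, chr11:68030492-68030521, chr12:4649115-4649144, chr21:42893317-42893346, chr19:19516227-19516256, chr11:47579080-47579109 and chr5:1801406-1801435 on the plus strand. Those of NDUFS1, NDUFA7, NDUFA6 and NDUFB11 lie, in that order, on the minus strand at chr2:206159413-206159442, chr19:8321512-8321541, chr22:42090727-42090756 and chrX:47144662-47144691. The capitals read ATGGCGG on the gene's strand in 10 genes and CCGCCAT, its reverse complement, in NDUFV2, NDUFS1 and NDUFV3.

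The NRF1 letters were in 6 of 32 structural promoters (18.8%), 1 of 7 NDUFAF promoters (14.3%) and 10.7% of those of tested genes. The 6 were NDUFA9, which did not pass, and NDUFA3, NDUFA8, NDUFA11, NDUFA12 and NDUFB4, which fell. The ETS letters were in 5 structural promoters (15.6%), beside 17.4% of those of tested genes, and the ESRRA letters in 4 (12.5%), beside 2.69%. Promoter stretches of 4 genes are printed, with the letters of any of the 4 motifs in capitals. NDUFB4 holds 3 NRF1 matches and an ESRRA match, NDUFA11 holds an NRF1 match, and NDUFB3 and NDUFAF2, the subunit that fell most and the assembly factor that rose most, hold none in the printed stretch.
NDUFB4: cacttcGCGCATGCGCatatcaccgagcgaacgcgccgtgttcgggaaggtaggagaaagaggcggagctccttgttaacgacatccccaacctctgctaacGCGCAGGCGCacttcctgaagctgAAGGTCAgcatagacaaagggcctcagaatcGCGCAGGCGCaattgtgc
NDUFA11: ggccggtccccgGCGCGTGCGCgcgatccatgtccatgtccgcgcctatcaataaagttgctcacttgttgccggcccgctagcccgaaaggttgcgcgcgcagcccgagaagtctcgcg
NDUFB3: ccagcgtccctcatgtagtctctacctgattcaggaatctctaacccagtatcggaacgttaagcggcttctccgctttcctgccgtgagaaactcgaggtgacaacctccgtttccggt
NDUFAF2: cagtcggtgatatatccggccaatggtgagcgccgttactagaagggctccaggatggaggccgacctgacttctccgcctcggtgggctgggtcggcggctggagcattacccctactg
The stretches of NDUFB4, NDUFB3 and NDUFAF2 lie at chr3:120596171-120596345, chr2:201071891-201072010 and chr5:60945095-60945214 on the plus strand, and that of NDUFA11 lies at chr19:5903781-5903900 on the minus strand. A match here is a match of letters only, and its lack says nothing of the factor.

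Nuclear core subunits of the matrix arm, which hold the flavin and the chain of iron-sulfur clusters, moved in both directions. NDUFV2 (ENSG00000178127, chromosome 18, 9102630 to 9134345, GRCh38), an iron-sulfur subunit beside the flavin, had 11.6, 12.1 and 11.5 CPM in the GNF5 libraries, against 6.92, 6.45 and 6.21 CPM in the DMSO libraries. Every GNF5 value lay above every DMSO value, and the log2 fold change was 0.85 ± 0.0814 (adjusted p = 4.49e-10). NDUFV2 shared 28.4% of its exon bases with an unnamed gene on the same strand, which had 0 counts, and reads falling on both were left out by the counting. Its pseudogene NDUFV2P1, looked at after these values were seen, went the other way, with 2.79, 2.72 and 3.07 CPM in the GNF5 libraries, against 3.58, 3.59 and 4.15 CPM in the DMSO libraries (log2 fold change -0.40 ± 0.126, adjusted p = 0.00747). How reads are divided between NDUFV2 and its copy was not tested, so the size of the rise of NDUFV2 is uncertain.

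NDUFS7, which carries the cluster that hands electrons to ubiquinone, rose by a smaller amount. It had 133, 136 and 136 CPM in the GNF5 libraries, against 123, 113 and 120.0 CPM in the DMSO libraries (log2 fold change 0.18 ± 0.0364, adjusted p = 8.03e-05). The GNF5 values lay above the DMSO values without overlap. NDUFS3, another core subunit of the matrix arm, had 68.5, 64.7 and 69.4 CPM in the GNF5 libraries, against 88.6, 81.1 and 87.1 CPM in the DMSO libraries. It fell, with a log2 fold change of -0.34 ± 0.0418 (adjusted p = 4.37e-08), and it shared 19.7% of its exon bases with PTPMT1.

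NDUFV1, NDUFS1 and NDUFS8 did not pass. NDUFV1, which binds NADH and the flavin, averaged 215 ± 6.61 CPM with GNF5 and 206 ± 6.13 CPM with DMSO (log2 fold change 0.06 ± 0.0343, adjusted p = 0.151). NDUFS1, which holds several iron-sulfur clusters, averaged 121 ± 3.96 CPM with GNF5 and 115 ± 3.16 CPM with DMSO (0.07 ± 0.0365, adjusted p = 0.0781), and its groups did not overlap. NDUFS8, another iron-sulfur subunit, averaged 95.2 ± 3.29 CPM with GNF5 and 89.6 ± 5.31 CPM with DMSO (0.09 ± 0.0418, adjusted p = 0.0657). These calls depended on single libraries. Without GNF5 replicate 2, NDUFS1 and NDUFS8 were called higher (adjusted p = 0.039 and 0.0296), NDUFS8 also without DMSO replicate 1 (0.0202), and NDUFV1 without GNF5 replicate 1 (0.0431).

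**Figure D2:**
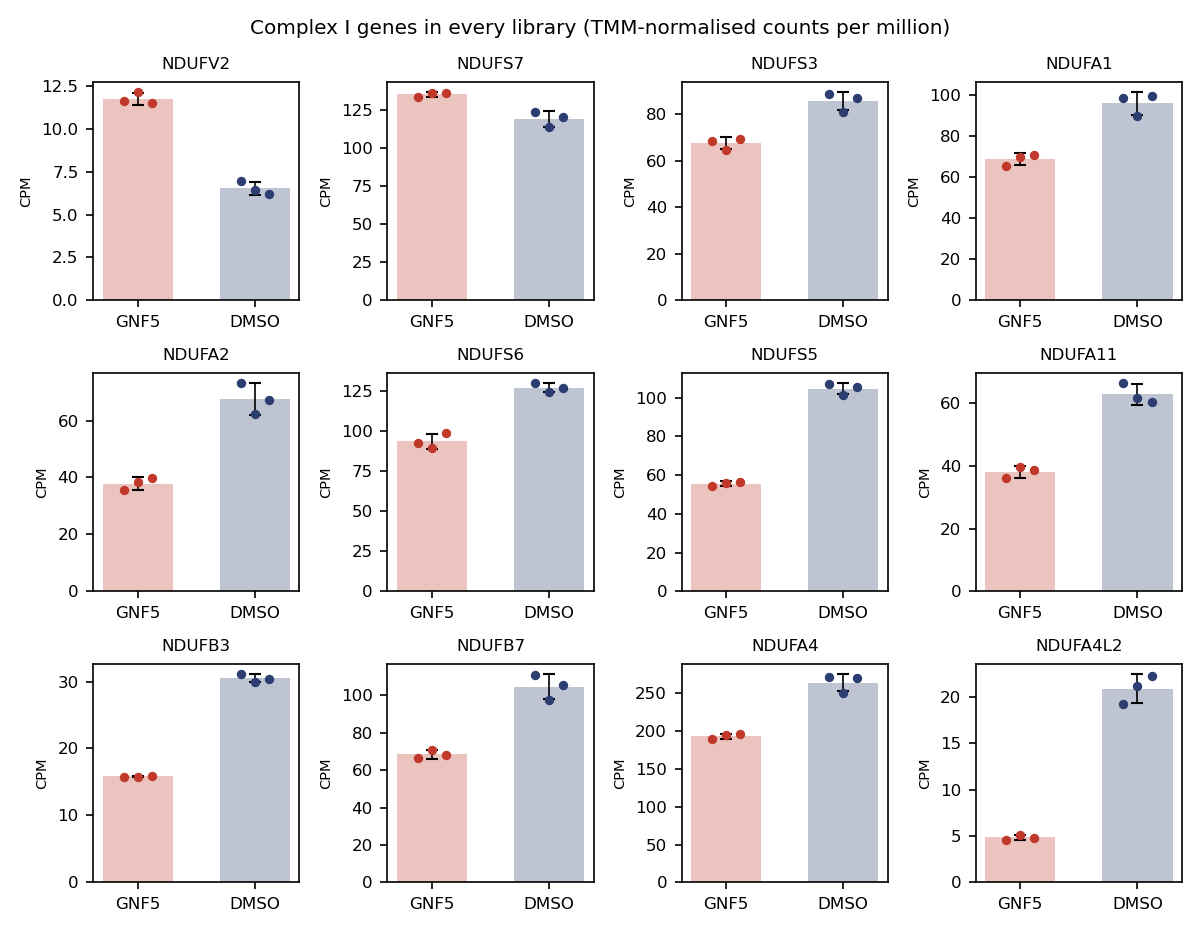
CPM (y axes, from 0) in the 3 GNF5 and 3 DMSO libraries for 12 genes. Bars are means, error bars SD and points libraries. NDUFV2 and NDUFS7 are higher with GNF5, and the other 10 are lower, NDUFA4L2 by the largest factor.

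Of 9 accessory subunits of the matrix arm, 1 rose, 5 fell and 3 did not pass (median log2 fold change -0.17). NDUFA2 (ENSG00000131495, chromosome 5, 140638740 to 140647771), a small subunit with a thioredoxin-like fold, had 35.5, 38.2 and 39.8 CPM in the GNF5 libraries, against 73.2, 62.1 and 67.3 CPM in the DMSO libraries. Its groups stood well apart, and the log2 fold change was -0.84 ± 0.0531 (adjusted p = 1.4e-13). NDUFS6, which binds zinc, had 92.6, 89.7 and 98.9 CPM in the GNF5 libraries, against 130.1, 125 and 127 CPM in the DMSO libraries (-0.44 ± 0.0384). NDUFA6, which belongs to the LYR family and binds the acyl carrier protein, had 119, 116 and 120.2 CPM in the GNF5 libraries, against 148, 139 and 145 CPM in the DMSO libraries (-0.28 ± 0.0355). In these 3 genes each GNF5 library was below each DMSO library.

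NDUFA5 had 126, 121 and 124 CPM in the GNF5 libraries, against 139, 135 and 144 CPM in the DMSO libraries (-0.17 ± 0.0355). NDUFA12, the paralog of the assembly factor NDUFAF2, averaged 42.7 ± 0.578 CPM with GNF5 and 50.4 ± 5.05 CPM with DMSO (-0.24 ± 0.0535). Both fell with no overlap between the groups. NDUFS4, which is mutated in some cases of Leigh syndrome, went the other way with 38.9, 34.7 and 40.7 CPM in the GNF5 libraries, against 32.6, 33.5 and 34.8 CPM in the DMSO libraries. Its groups touched, at 34.7 CPM in GNF5 replicate 2 and 34.8 CPM in DMSO replicate 3, and its call (log2 fold change 0.18 ± 0.0526, adjusted p = 0.00395) was lost without GNF5 replicate 3 (adjusted p = 0.0529). NDUFV3 and NDUFA9 did not pass (0.07 ± 0.0377 and 0.07 ± 0.0510). NDUFA7 was counted at only 1.32 ± 0.209 CPM with GNF5 and 1.18 ± 0.0937 CPM with DMSO (0.16 ± 0.20), and 32.5% of its exon bases belong to a neighbouring gene as well.

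The accessory subunits of the membrane arm fell most widely, with 0 of 20 higher and 16 lower. On the proximal side, next to the mitochondrially encoded ND1 and ND2, 7 of 9 fell (median log2 fold change -0.36). NDUFS5 (ENSG00000168653, chromosome 1, 39026318 to 39034636), a small subunit on the side of the intermembrane space, had 54.3, 56.1 and 56.5 CPM in the GNF5 libraries, against 107, 101.5 and 106 CPM in the DMSO libraries. The GNF5 values were close to each other and well below all DMSO values, at a log2 fold change of -0.91 ± 0.0389 (adjusted p = 7.82e-18). NDUFA11 (ENSG00000174886, chromosome 19, 5891276 to 5904006), which touches complex III in supercomplexes, had 36.0, 39.6 and 38.7 CPM in the GNF5 libraries, against 66.5, 61.6 and 60.4 CPM in the DMSO libraries (-0.72 ± 0.0476, adjusted p = 1.46e-13). NDUFA1, encoded on the X chromosome, had 65.4, 70.0 and 70.8 CPM in the GNF5 libraries, against 98.7, 89.6 and 99.6 CPM in the DMSO libraries (-0.48 ± 0.0434). NDUFA8 had 70.2, 74.6 and 76.6 CPM in the GNF5 libraries, against 95.6, 92.4 and 96.4 CPM in the DMSO libraries (-0.36 ± 0.0397). The groups of these 4 genes did not overlap.

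NDUFC2 averaged 19.7 ± 1.24 CPM with GNF5 and 26.3 ± 1.69 CPM with DMSO (-0.42 ± 0.0599), although 18.6% of its exon bases are shared with the readthrough gene. That gene, NDUFC2-KCTD14, had 4, 8 and 3 counts in the GNF5 libraries and 3, 0 and 2 in the DMSO libraries, too few to test, and 99.6% of its exon bases are shared. NDUFC1 and NDUFA3 fell by little (-0.19 ± 0.0679 and -0.15 ± 0.0541), and each call rested on single libraries. Without GNF5 replicate 2 their adjusted p-values were 0.18 and 0.16, and without DMSO replicate 3 they were 0.0624 and 0.152. The groups of NDUFA3 overlapped, and those of NDUFC1 did not. NDUFA10 averaged 57.5 ± 0.832 CPM with GNF5 and 58.0 ± 1.81 CPM with DMSO (-0.01 ± 0.0416). NDUFA13, also known as the cell death regulator GRIM-19, averaged 13.1 ± 0.545 CPM with GNF5 and 14.0 ± 0.778 CPM with DMSO (-0.09 ± 0.0703), with 21% of its exon bases shared.

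On the distal side, next to ND4 and ND5, 9 of 11 fell and the median log2 fold change was -0.42. NDUFB3 (ENSG00000119013, chromosome 2, 201071433 to 201085750), whose promoter is printed above, had 15.8, 15.7 and 16.0 CPM in the GNF5 libraries, against 31.1, 29.99 and 30.3 CPM in the DMSO libraries. The 6 libraries fell into 2 tight sets with a log2 fold change of -0.95 ± 0.0535 (adjusted p = 4.79e-15), the lowest of the 37 structural subunits. NDUFB7, a subunit with paired disulfides on the side of the intermembrane space, had 66.3, 70.8 and 67.9 CPM in the GNF5 libraries, against 111, 97.5 and 105 CPM in the DMSO libraries (-0.61 ± 0.0433). NDUFB2 had 60.3, 59.7 and 61.4 CPM in the GNF5 libraries, against 90.2, 81.9 and 87.6 CPM in the DMSO libraries (-0.52 ± 0.0412). NDUFB6 had 55.2, 56.5 and 60.7 CPM in the GNF5 libraries, against 86.6, 76.4 and 81.4 CPM in the DMSO libraries (-0.50 ± 0.0461). In all 4 genes the GNF5 libraries were below the DMSO libraries.

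NDUFB1, NDUFB11 and NDUFB4 fell without overlap, with log2 fold changes of -0.48 ± 0.0477, -0.42 ± 0.0422 and -0.33 ± 0.0441. NDUFB9, another LYR protein that binds the acyl carrier, averaged 172 ± 3.57 CPM with GNF5 and 194 ± 9.06 CPM with DMSO (-0.18 ± 0.0359). NDUFB10 averaged 139 ± 6.11 CPM with GNF5 and 150.2 ± 7.48 CPM with DMSO with overlapping groups (-0.11 ± 0.0392, adjusted p = 0.0179). Its call was lost without GNF5 replicate 1 or 2 (adjusted p = 0.0988 and 0.0587) and without DMSO replicate 1 or 3 (0.0857 and 0.0741). NDUFB5 had 88.5, 81.2 and 82.9 CPM in the GNF5 libraries, against 78.1, 78.6 and 81.2 CPM in the DMSO libraries and did not pass (0.09 ± 0.0398, adjusted p = 0.0596), though it was called higher without GNF5 replicate 2 (0.0282). NDUFB8, with 33.8% of its exon bases shared, averaged 12.7 ± 2.04 CPM with GNF5 and 14.7 ± 1.44 CPM with DMSO (-0.21 ± 0.0943, adjusted p = 0.0559). It passed as lower under 6 of 13 other settings (upper-quartile factors, either other filter, the replicate block, and without GNF5 replicate 2 or DMSO replicate 3), with adjusted p-values from 0.00252 to 0.317 over the 13. NDUFAB1, the mitochondrial acyl carrier protein, which sits in each arm and also serves lipoic acid synthesis, had 70.7, 72.9 and 75.2 CPM in the GNF5 libraries, against 86.2, 85.2 and 87.0 CPM in the DMSO libraries (-0.24 ± 0.0383). All its GNF5 values were below all DMSO values.

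Assembly factors moved in both directions. NDUFAF2 (ENSG00000164182, chromosome 5, 60945205 to 61153026), which stabilises a late intermediate before its paralog NDUFA12 takes its place, had 36.9, 30.9 and 34.3 CPM in the GNF5 libraries, against 22.6, 22.0 and 22.4 CPM in the DMSO libraries. GNF5 replicate 1 was highest and all 3 GNF5 libraries were above the DMSO libraries, with a log2 fold change of 0.61 ± 0.0568 (adjusted p = 2.3e-10). The structural subunit NDUFA12 fell, as given above. Reads of NDUFAF2 can be shared with 2 pseudogenes, which held 245 counts over the 6 libraries beside 9290 for the gene.

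NDUFAF6, which acts in the assembly of the ubiquinone module, had 43.7, 44.5 and 42.8 CPM in the GNF5 libraries, against 35.7, 34.9 and 34.0 CPM in the DMSO libraries (0.32 ± 0.0451, adjusted p = 3.94e-07). NDUFAF4 had 70.6, 69.6 and 71.1 CPM in the GNF5 libraries, against 64.4, 61.5 and 66.6 CPM in the DMSO libraries (0.13 ± 0.0406, adjusted p = 0.00514). Both were higher in every GNF5 library than in any DMSO library, but the call of NDUFAF4 was lost without DMSO replicate 2 (adjusted p = 0.0512). NDUFAF3, the partner of NDUFAF4 in building the ubiquinone module, fell, with 32.7, 33.5 and 34.6 CPM in the GNF5 libraries, against 39.1, 37.0 and 40.6 CPM in the DMSO libraries (-0.21 ± 0.0481). NDUFAF8, the partner of NDUFAF5, also fell, with 38.0, 37.2 and 38.5 CPM in the GNF5 libraries, against 54.0, 46.01 and 48.6 CPM in the DMSO libraries (-0.39 ± 0.0508, adjusted p = 1.62e-07). Each library with GNF5 was below each library with DMSO in both of these genes.

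NDUFAF5, which hydroxylates an arginine of NDUFS7, had 29.3, 31.1 and 28.7 CPM in the GNF5 libraries, against 27.8, 27.0 and 28.2 CPM in the DMSO libraries and did not pass (0.10 ± 0.0503, adjusted p = 0.0828) although its groups did not overlap. NDUFAF7, an arginine methyltransferase of mitochondria, had 11.1, 11.8 and 13.0 CPM in the GNF5 libraries, against 10.6, 10.4 and 11.5 CPM in the DMSO libraries (0.14 ± 0.0783, adjusted p = 0.126), and was called higher without GNF5 replicate 1 (0.0449). NDUFAF1, which works with ECSIT and ACAD9 on the membrane arm, had 20.4, 19.2 and 19.7 CPM in the GNF5 libraries, against 19.5, 17.7 and 17.8 CPM in the DMSO libraries (0.11 ± 0.0606, adjusted p = 0.123). In the last 2 genes the groups overlapped.

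**Figure D3:**
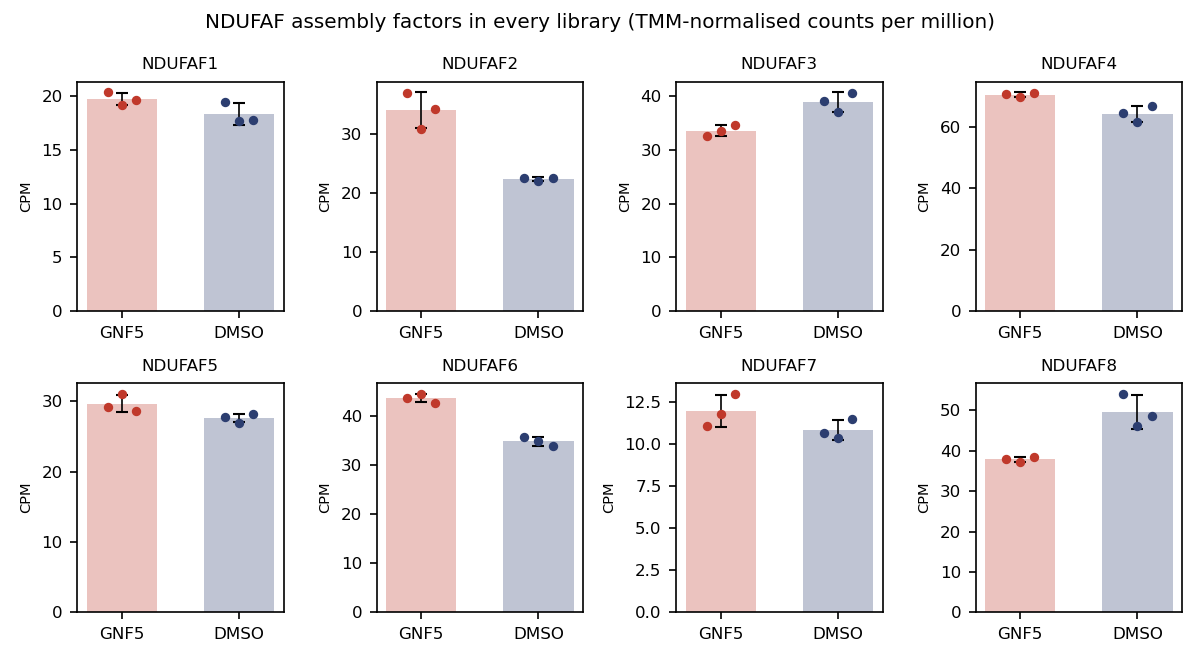
CPM (y axes, from 0) of the 8 NDUFAF genes in the 3 GNF5 and 3 DMSO libraries. Bars are means, error bars SD and points libraries. NDUFAF2, NDUFAF4 and NDUFAF6 are higher and NDUFAF3 and NDUFAF8 lower with GNF5.

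Assembly factors with other names were read from a list of 13, of which 2 rose, 6 fell and 5 did not pass (median log2 fold change -0.08). Of all tested genes, 31% were called higher and 30.7% lower. ECSIT had 88.0, 86.6 and 86.1 CPM in the GNF5 libraries, against 67.3, 62.4 and 67.4 CPM in the DMSO libraries (0.40 ± 0.0399), and TMEM186, found in the same assembly complex, averaged 20.4 ± 0.512 CPM with GNF5 and 15.5 ± 0.482 CPM with DMSO (0.40 ± 0.0605). ACAD9 and TMEM126B of that complex did not pass (-0.08 ± 0.0507 and -0.08 ± 0.0411), and TMEM126B passed as lower with upper-quartile factors (adjusted p = 0.0301). ACAD9 passed as lower without GNF5 replicate 2 (0.0164). DMAC1, COA1, TMEM70, LYRM2 and FOXRED1 fell, with log2 fold changes from -0.39 to -0.19. NUBPL, which delivers iron-sulfur clusters to complex I, fell by 0.26 on the log2 scale, a call lost without DMSO replicate 3 (adjusted p = 0.0507). TIMMDC1, TMEM126A and DMAC2 did not pass (log2 fold changes 0.12, 0.09 and -0.08). DMAC2 passed as lower with upper-quartile factors or a stricter filter and without GNF5 replicate 1 or DMSO replicate 2, with adjusted p-values from 0.0203 to 0.0411.

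NDUFA4 and NDUFA4L2 carry complex I names, but NDUFA4 is known as a subunit of complex IV. NDUFA4 had 189, 194 and 196 CPM in the GNF5 libraries, against 271, 251 and 270.2 CPM in the DMSO libraries (-0.45 ± 0.0347, adjusted p = 4.47e-12). NDUFA4L2 (ENSG00000185633, chromosome 12, 57234903 to 57240715), its paralog, is known as a target of HIF-1 that lowers the activity of complex I in hypoxia. It had 4.63, 5.13 and 4.79 CPM in the GNF5 libraries, against 19.2, 21.2 and 22.3 CPM in the DMSO libraries. Every GNF5 library was far below every DMSO library, a 4.32-fold lower level with GNF5 (log2 fold change -2.11 ± 0.0805, adjusted p = 5.9e-19). In both groups NDUFA4 was the more abundant gene per length of exon, at 55.8 CPM per kb with GNF5 and 76.2 with DMSO, beside 1.73 and 7.46 CPM per kb for NDUFA4L2.

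The 7 core subunits encoded by mitochondrial DNA, which form the core of the membrane arm, are outside the list by name and did not share a direction. MT-ND4 had 11136, 11426 and 10981 CPM in the GNF5 libraries, against 6762, 7449 and 7294 CPM in the DMSO libraries (0.64 ± 0.0381). MT-ND4L, read from the same RNA as MT-ND4, averaged 1764 ± 47.6 CPM with GNF5 and 1446 ± 64.7 CPM with DMSO (0.29 ± 0.0356), and MT-ND5 averaged 2864 ± 69.4 CPM with GNF5 and 2300.2 ± 143 CPM with DMSO (0.32 ± 0.0384). These 3 genes lie in a row on the mitochondrial genome and rose. MT-ND1, MT-ND2 and MT-ND3 fell, with log2 fold changes of -0.57, -0.47 and -0.33. MT-ND6, which is encoded on the opposite strand from the other 6, had 524, 682 and 654 CPM in the GNF5 libraries, against 1803, 1609.6 and 1628 CPM in the DMSO libraries. It fell most of the 7, with a log2 fold change of -1.44 ± 0.125 (adjusted p = 0.000544). In each of the 7 genes the groups did not overlap, and copies of mitochondrial DNA in the nucleus can take part of their reads. The 7 genes together summed to 20710 to 21753 CPM with GNF5 and 18801 to 19527 CPM with DMSO.

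**Figure D4:**
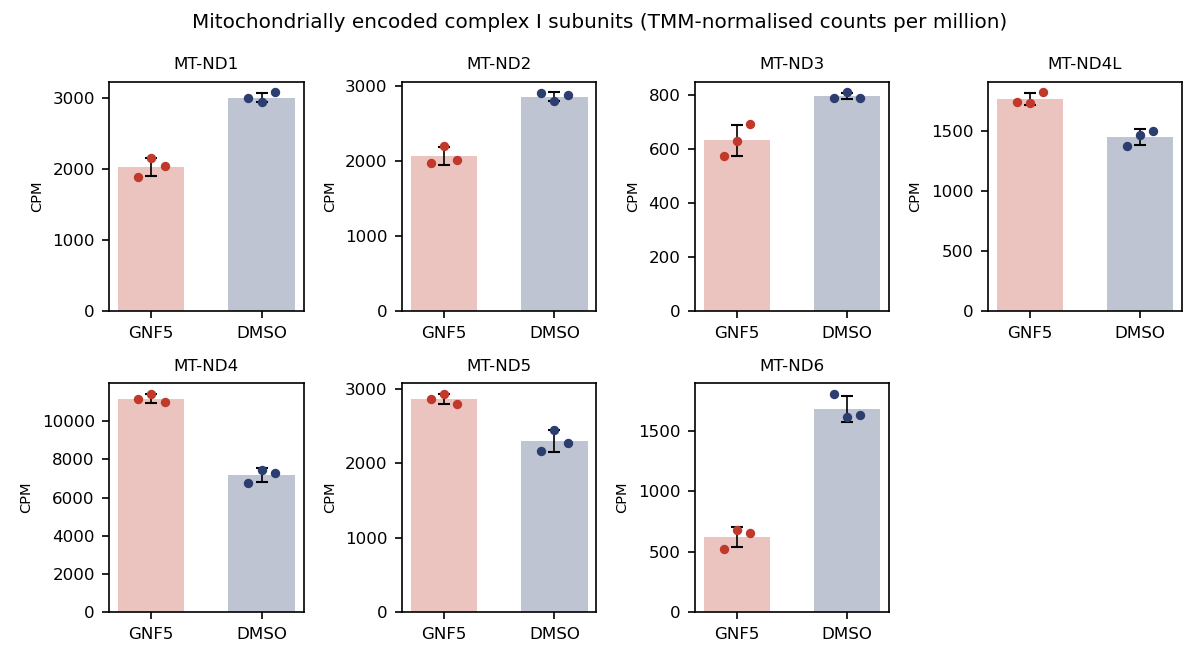
CPM (y axes, from 0) of the 7 mitochondrially encoded subunits in the 3 GNF5 and 3 DMSO libraries. Bars are means, error bars SD and points libraries. MT-ND4L, MT-ND4 and MT-ND5 are higher with GNF5, and MT-ND1, MT-ND2, MT-ND3 and MT-ND6 are lower.

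Regulators of nuclear genes for mitochondria were read beside the subunits, and 5 of 10 rose while 2 fell. Shares over all tested genes were 31% higher and 30.7% lower. Among those averaging at least 10 CPM with 2000 or more exon bases, 41.1% were higher and 35.6% lower. PPARGC1A, the coactivator PGC-1α, had 31.3, 28.7 and 29.4 CPM in the GNF5 libraries, against 10.0, 10.8 and 8.73 CPM in the DMSO libraries (log2 fold change 1.597 ± 0.0686, adjusted p = 9.22e-18). Its relative PPRC1 averaged 117 ± 7.50 CPM with GNF5 and 72.7 ± 1.32 CPM with DMSO (0.68 ± 0.0416), and the receptor ESRRA had 174, 156 and 164.58 CPM in the GNF5 libraries, against 121, 109.7 and 119 CPM in the DMSO libraries (0.50 ± 0.0411). Values of the groups did not overlap in the 5 regulators that rose. YY1 averaged 259 ± 9.67 CPM with GNF5 and 234 ± 0.840 CPM with DMSO (0.15 ± 0.0333), and PPARGC1B averaged 75.2 ± 2.87 CPM with GNF5 and 66.4 ± 3.37 CPM with DMSO (0.18 ± 0.0430). GABPA and TFB2M, a mitochondrial transcription factor, fell (-0.20 ± 0.0495 and -0.22 ± 0.0496). NRF1, the factor TFAM and GABPB1 did not pass (0.05 ± 0.0521, -0.07 ± 0.0443 and -0.11 ± 0.0554). GABPB1 passed as lower with upper-quartile factors and without GNF5 replicate 3 (adjusted p = 0.0406 and 0.0423).

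Lower genes also made up most of the nuclear subunits of complexes III, IV and V. Of 30 accessory subunits, NDUFAB1 included, 22 fell and 1 rose (median log2 fold change -0.26). In complex II 2 of 4 fell and 1 rose (median -0.13), and in complex III 7 of 9 fell and 1 rose (-0.20). In complex IV all 10 fell (-0.50), and in complex V 12 of 15 fell (-0.42). For the 7 core subunits of complex I the median was 0.09. Called shares over all tested genes were 31% higher and 30.7% lower. No test of a list against another was made.

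Many accessory subunits are small proteins, and the split by length ran alongside the split by role. Length here joins the exons of all transcripts of a gene and can exceed the length of its RNA. Among the 17 structural subunits with under 2000 exon bases in the count files, 14 fell and 1 rose (median log2 fold change -0.36), while among the 20 longer ones 9 fell and 3 rose (median -0.05). Spearman's rho of fold change with exon length was 0.549 across the 37 subunits and 0.0809 across all 20734 tested genes, weakly expressed ones included. These are descriptions across genes, which are not independent replicates. Among tested genes averaging at least 10 CPM, 47.4% of the 843 short genes and 35.6% of the 9654 longer genes were called lower. The median log2 fold changes of these short and longer genes were -0.0967 and 0.0305. The median exon length was 4523 bases for the core subunits and 1835 for the accessory subunits, but lengths overlap. Of subunits with 2000 or more exon bases, 1 of 7 core genes fell (median log2 fold change 0.09), while 8 of 13 accessory genes fell and 0 rose (median -0.17). The part of length in the fold changes was not tested.

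**Figure D5:**
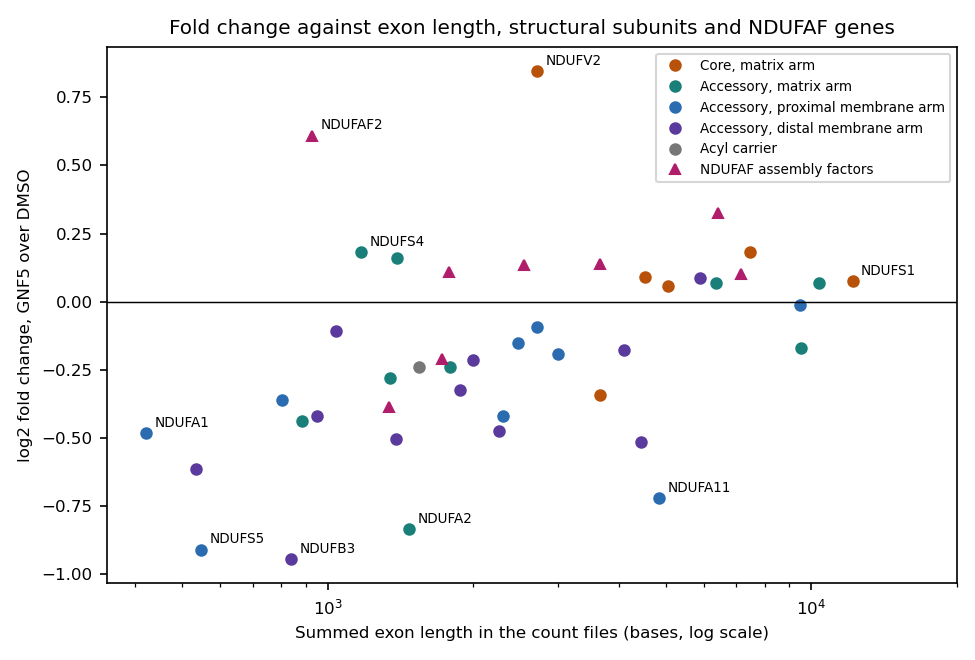
Log2 fold change, GNF5 over DMSO (y axis), against summed exon length in bases (x axis, log scale) for 36 of the 37 structural subunits (circles) and the 8 NDUFAF genes (triangles), coloured by role. The short subunits NDUFA1, NDUFS5 and NDUFB3 lie well below 0, while NDUFAF2 and NDUFS4, also short, lie above it.

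Levels per length differed widely among the subunits, although the enzyme holds nearly all of them in equal number. Per kb of exon, structural subunits ran from 0.951 to 163.2 CPM with GNF5 (median 18.9) and from 0.847 to 228 CPM with DMSO (median 26.2). NDUFAF genes ran from 3.27 to 36.6 CPM per kb with GNF5 (median 15.3) and from 2.97 to 37.0 with DMSO (median 16.4). NDUFA1 was the highest and NDUFA7 the lowest subunit in both groups. NDUFS5 took rank 5 with GNF5 and rank 3 with DMSO among the 45 subunits and NDUFAF genes, and NDUFAF2 took rank 13 with GNF5 and rank 22 with DMSO. Exon length in the files joins all transcripts of a gene, and 5 of the 48 genes share at least 20% of their exon bases with another gene on the same strand, so levels of single genes can be too low. With the 4 such subunits left out, 3 of 33 rose and 23 fell, with a median log2 fold change of -0.24. Named pseudogenes, 63 in all, exist for 21 of the 48 genes. Multi-mapped reads were left out, which can also lower the levels of these genes.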

How the data were processed

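Files hold raw counts per gene, deposited by the authors. Per the file headers, featureCounts 1.6.1 counted read pairs on exons, strand-reversed, from the GRCh38 annotation of Ensembl release 101, leaving out multi-mapped reads and reads on several genes by default. The submitters' processing notes also name GRCh37, STAR, Trim Galore, DESeq2 and HTSeq, with no role. The labels give the GNF5 dose in micromolar per sample and in millimolar in the protocol, and 20 µM was used.

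Symbols were looked up by gene ID, which matched 60401 of 60671. GNF5 was compared with DMSO by edgeR 4.0.16 in R 4.3.3 (robust quasi-likelihood test, TMM, default expression filter, no covariate, Benjamini-Hochberg adjustment over 20734 genes, adjusted p under 0.05), after a check on simulated data. The SE is the log2 fold change over the square root of F. CPM uses TMM-scaled library sizes. Counts of replicates differed by more than sampling noise. Alternatives were other scaling, DESeq2 1.42.0, other filters, a replicate block and each library left out. Every gene of the list is named except 1, which is not reported here. Values of every library are given for up to 4 called genes per role, called genes against their role's median, NDUFAF genes and the NDUFA4 pair. The genes and lists were chosen with earlier results of these data known, and the length split, the motifs and the alternative without shared exons after the values here were seen.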

Additional observations from a re-analysis of the deposited data

How the results depend on the processing

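Under 13 other settings (2 other scalings, scaling without mitochondrially encoded genes, 2 filters, DESeq2, a replicate block and each library left out), 29 of the 34 called genes of the list kept their call and direction in each. The exceptions, NDUFS4, NDUFA3, NDUFC1, NDUFB10 and NDUFAF4, lost the call only where a library was left out. Subunits called lower numbered 21 to 24 over these settings. Subunits called higher ran from 3 to 7 with a library left out, and stayed at 4 under the other 7 settings. NDUFAF genes called higher numbered 2 to 4 and those called lower 2. The median log2 fold change of the NDUFAF genes ran from 0.09 (0.0864, without DMSO replicate 2) to 0.14 (0.139) with a library left out. NDUFA10, not called, changed sign without GNF5 replicate 1 (log2 fold change 0.00134, beside -0.0415 without DMSO replicate 3). Deviations of same-numbered libraries from their group means correlated at -0.0157, 0.0159 and 0.00082 over the tested genes. No pairing by replicate number was seen, which does not exclude it. With the number as a replicate block, 12475 genes were called, beside 12782 without it, and 4 subunits rose and 24 fell. Levels were low for NDUFA7, NDUFV2, NDUFB8, NDUFA13 and NDUFAF7, counted at under 15 CPM on average in each group. NDUFA7 had only 61 to 73 counts per library. NDUFA7, NDUFV2, NDUFB8 and NDUFA13 share at least 20% of their exon bases with another gene, and reads on several genes were left out.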
